A study of Mus musculus with 12 samples.

Results

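PRDM16 peaks obtained with an antibody raised in rabbit were set against those obtained with an antibody raised in sheep, on chromosomes 1 to 19 of the mouse genome (build mm10). The rabbit antibody list held 108677 peaks there and the sheep antibody list 77421, together 186098 of the 487413 peaks deposited for 9 libraries of the series. A peak was classed as shared when at least 1 of its bases lay in a peak of the other list, and otherwise as rabbit only or sheep only. The classes were made for all peaks and again between the 20000 peaks of each list with the highest fold enrichment, the ratio of signal to background that the authors' peak caller gave each peak.

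Both libraries, like all others of the series, came from EpCAM-positive cells of wild-type C57Bl6 mouse lungs at E17.5, shortly before birth. Lungs of several fetuses were pooled and the cells taken with microbeads against EpCAM, a surface protein of epithelial cells. Binding was mapped by CUT&RUN on 100000 cells per reaction: an antibody bound to its target recruits a nuclease (pAG-MNase) that cuts out the chromatin around it. The series also holds 1 PRDM3, 3 NKX2-1 and 3 H3K4me3 libraries, all made with rabbit antibodies, and 3 IgG samples that were not analysed here. The labels trace the rabbit PRDM16 antibody to a published study and the sheep antibody to a commercial supplier. With 1 library per antibody there is no test between the antibodies, and antibody, host species and library cannot be told apart. The labels do not say whether the libraries came from separate pools of fetuses. The depth of the libraries is unknown from peak lists, and no source used here says whether IgG served as the control in calling peaks.

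PRDM16 is a zinc-finger protein with a PR domain, the domain that names a family of chromatin regulators, and is best known for directing precursor cells towards brown fat. Its nearest relative is PRDM3, encoded by Mecom. Such proteins bind DNA through their zinc fingers but also reach chromatin through partner proteins, so a CUT&RUN peak can mark direct or indirect contact. In the late fetal lung, epithelial cells are becoming alveolar type 1 (AT1) cells, the thin cells of gas exchange, or alveolar type 2 (AT2) cells, which make surfactant. NKX2-1 is the homeodomain factor that specifies lung epithelium, and H3K4me3 marks active promoters. An antibody sees only its own epitopes, and a second antibody against the same protein is the usual check on a peak list.

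Epithelial marker genes carried the promoter mark in the sorted cells. An H3K4me3 peak lay at an end of 8, 8 and 8 of 8 epithelial marker genes in libraries 1, 2 and 3, against 3, 1 and 0 of 6 mesenchymal, 3, 1 and 1 of 6 endothelial, and 1, 1 and 1 of 6 blood and immune marker genes. For scale, 58.3%, 56.0% and 54.5% of all the promoter windows described below overlapped a peak of libraries 1, 2 and 3. That measure is over windows and not gene ends. The markers are only some members of the longer gene lists used below. The deposited peak names put both PRDM16 libraries in a C-numbered series with PRDM3 and replicate 1 of NKX2-1 and of H3K4me3, whereas replicates 2 and 3 of those targets carry H numbers. For this reason values over the other targets are given library by library.

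Promoters showed what each class looks like on the sequence level. Of 20063 RefSeq promoter windows (GRCm38.p6, 250 bases before to 50 bases after a gene start), 8751 (43.6%) were overlapped by peaks of both antibodies, 2388 (11.9%) by rabbit antibody peaks only, 853 (4.25%) by sheep antibody peaks only and 8071 (40.2%) by neither. Below, a pair of windows is shown for each of the first 3 classes, those covered whole by the strongest peaks of the class, chosen after the values were seen. All 6 windows overlapped an H3K4me3 peak in 3 of 3 libraries. Capitals mark matches, on either strand, to any of 11 short motifs that were searched. These were GATAAG of GATA factors, CAAGTG of NKX2 factors, CCGGAAG of ETS factors, GGGCGG (the GC box of Sp and Klf factors), CCAAT of NF-Y, TGACGTCA of CREB, TGTTTAC of forkhead factors, TGANTCA of AP-1, CACGTG (an E-box), and the palindromes of NFI and of NRF1. None of these motifs lies within another, but matches may share bases. Fbxl19 encodes a CpG-binding F-box protein and Slc25a28 a mitochondrial iron carrier. Pear1 encodes a platelet and endothelial receptor, Rapgef1 an exchange factor for small GTPases, Rbm43 an RNA-binding protein and Nod2 a sensor of bacterial cell wall fragments.
Fbxl19, both antibodies (chr7:127746028-127746327, plus strand): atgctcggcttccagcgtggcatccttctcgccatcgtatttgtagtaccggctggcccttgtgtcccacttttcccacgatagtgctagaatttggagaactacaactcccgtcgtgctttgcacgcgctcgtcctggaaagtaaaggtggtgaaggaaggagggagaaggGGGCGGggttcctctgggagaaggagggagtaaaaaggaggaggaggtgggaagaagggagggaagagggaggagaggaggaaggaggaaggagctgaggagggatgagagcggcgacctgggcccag
Slc25a28, both antibodies (chr19:43674832-43675131, minus strand): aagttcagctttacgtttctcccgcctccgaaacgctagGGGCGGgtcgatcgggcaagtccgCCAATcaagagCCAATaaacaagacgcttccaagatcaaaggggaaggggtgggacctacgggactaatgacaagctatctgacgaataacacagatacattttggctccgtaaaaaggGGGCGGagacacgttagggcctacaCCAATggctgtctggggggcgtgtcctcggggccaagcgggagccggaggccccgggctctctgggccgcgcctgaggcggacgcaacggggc
Pear1, rabbit only (chr3:87768904-87769203, minus strand): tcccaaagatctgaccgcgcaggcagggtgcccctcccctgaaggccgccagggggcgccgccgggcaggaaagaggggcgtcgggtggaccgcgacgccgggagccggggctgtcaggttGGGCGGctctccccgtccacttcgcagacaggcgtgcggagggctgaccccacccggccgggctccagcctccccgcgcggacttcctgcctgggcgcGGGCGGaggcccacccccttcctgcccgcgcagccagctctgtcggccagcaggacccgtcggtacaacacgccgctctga
Rapgef1, rabbit only (chr2:29619470-29619769, plus strand): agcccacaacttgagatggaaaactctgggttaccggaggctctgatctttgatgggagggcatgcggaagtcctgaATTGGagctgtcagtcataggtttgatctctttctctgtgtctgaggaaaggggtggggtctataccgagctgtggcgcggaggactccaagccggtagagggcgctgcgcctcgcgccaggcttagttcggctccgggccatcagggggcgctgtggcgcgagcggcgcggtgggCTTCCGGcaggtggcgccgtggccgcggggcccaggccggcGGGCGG
Rbm43, sheep only (chr2:51934595-51934894, minus strand): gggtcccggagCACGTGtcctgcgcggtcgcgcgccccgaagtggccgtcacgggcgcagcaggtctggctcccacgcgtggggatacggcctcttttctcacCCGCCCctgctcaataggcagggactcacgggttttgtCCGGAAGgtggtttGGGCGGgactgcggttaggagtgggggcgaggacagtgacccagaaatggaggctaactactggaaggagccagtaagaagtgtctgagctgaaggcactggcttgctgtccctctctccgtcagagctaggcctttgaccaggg
Nod2, sheep only (chr8:88647097-88647396, plus strand): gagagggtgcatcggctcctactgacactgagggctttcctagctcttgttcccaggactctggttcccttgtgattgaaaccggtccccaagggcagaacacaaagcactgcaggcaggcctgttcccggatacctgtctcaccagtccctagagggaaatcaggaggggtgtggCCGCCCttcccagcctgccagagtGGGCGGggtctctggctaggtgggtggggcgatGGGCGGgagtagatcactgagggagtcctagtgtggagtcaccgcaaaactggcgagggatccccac

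The Fbxl19 and Slc25a28 windows had peaks of 26.8 and 30.5 fold enrichment in the rabbit antibody list, and of 20.04 and 15.0 in the sheep antibody list. The rabbit-only peaks at Pear1 and Rapgef1 had fold enrichments of 25.8 (rank 143) and 20.5 (rank 390), and the sheep-only peaks at Rbm43 and Nod2 of 9.47 (rank 1763) and 9.33 (rank 1945). GC content was 58% at Fbxl19, 60% at Slc25a28, 75% at Pear1, 65.3% at Rapgef1, 63.7% at Rbm43 and 61% at Nod2. All 6 windows held GGGCGG.

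Across all windows the classes were graded in base composition and in the promoter mark. Median GC content was 63.0% in windows with both antibodies, 59.3% in rabbit-only, 57.0% in sheep-only and 48.3% in windows with neither, against 57.0% over all. The median number of CpG dinucleotides was 23, 18, 13 and 3 in the same order, and 14 over all. H3K4me3 was present in all 3 libraries at 92.9%, 69.8%, 51.5% and 6.78% of them, and at 53.7% of all windows. GGGCGG stood in 72.1% of windows with both antibodies, in 55.9% of rabbit-only, 49.1% of sheep-only and 17.0% of windows with neither (47.0% of all). The ETS motif CCGGAAG followed the same order, with 19.02%, 15.5%, 10.4% and 3.22% (11.9% of all). GATAAG ran the other way, with 4.14%, 4.52%, 7.97% and 10.5% (6.91% of all). So did CAAGTG, with 9.85%, 11.9%, 15.6% and 16.2% (12.9% of all). Not every step was clear of counting error. The Wilson 95% intervals for GATAAG overlapped between both antibodies (3.74% to 4.57%) and rabbit only (3.76% to 5.43%), and between sheep only and neither. Those for CAAGTG overlapped between sheep only (13.3% to 18.2%) and neither (15.4% to 17.0%). CCAAT, the NF-Y motif, showed no such order, with 39.7%, 33.5%, 31.7% and 38.4% (38.1% of all). Between the 20000 strongest peaks of each list, 22.0% of windows had both antibodies, 15.6% the rabbit, 6.48% the sheep and 56.0% neither. In these classes GGGCGG kept its order, with 74.3%, 69.7%, 62.5% and 28.2%, and so did CAAGTG, with 9.36%, 9.75%, 12.5% and 15.2%. For CAAGTG the intervals of both antibodies (8.53% to 10.3%) and rabbit only (8.76% to 10.8%) overlapped. The antibody classes were no longer graded for CCGGAAG, with 17.98%, 19.5% and 19.4% against 6.49% with neither, nor for GATAAG, with 4.34%, 3.84% and 4.46% against 9.07% with neither. The part of GC content in these motif shares was not tested.

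Single peaks outnumbered shared ones, by a wide margin in the rabbit and a narrow one in the sheep antibody list. Of rabbit antibody peaks, 36643 (33.7%, Wilson 95% interval 33.4% to 34.0%) overlapped a sheep antibody peak and 72034 did not. Of sheep antibody peaks, 37638 (48.6%, 48.3% to 49.0%) overlapped a rabbit antibody peak and 39783 did not. The rabbit antibody peaks covered 60.8 Mb and the sheep antibody peaks 42.0 Mb. With lists of equal length the shares came together: between the 20000 strongest peaks of each, 10361 rabbit (51.8%, 51.1% to 52.5%) and 10558 sheep antibody peaks (52.8%, 52.1% to 53.5%) were shared. Of the 9639 rabbit-only peaks in that set, 5913 lay over a weaker sheep antibody peak and 3726 over none. Of the 9442 sheep-only peaks, 6724 lay over a weaker rabbit antibody peak and 2718 over none. Intervals in this text cover counting error over peaks only.

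Shared peaks were taller and wider than single ones in both lists. Median fold enrichment was 4.90 for shared and 2.80 for rabbit-only peaks, and 4.04 for shared and 2.80 for sheep-only peaks. Median width was 744 bases for shared and 338 bases for rabbit-only peaks, and 606 and 314 bases for shared and sheep-only peaks. A −log10 q of at least 5, a strict limit, was reached by 43.0% of shared and 4.83% of rabbit-only peaks, and by 28.9% of shared and 1.34% of sheep-only peaks. The lists reach far down: 44.9% of rabbit and 45.1% of sheep antibody peaks had a q under 0.05. Their lower parts are stacked on a few values, 2.15 for 22376 rabbit antibody peaks (20.6%) and 2.34 for 11988 sheep antibody peaks (15.5%), so ranks there say little. The edge of the 20000 also fell among ties, with the last peak taken and the first left out both at 5.16 in the rabbit and both at 4.205 in the sheep antibody list. The 20000 strongest were 18.4% of the rabbit and 25.8% of the sheep antibody list, and 94.98% and 56.0% of them had a −log10 q of at least 5.

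The strongest peaks of one antibody nearly always had a peak of the other, but seldom one of its strongest. Of the 1000 strongest peaks, 92.5% of rabbit and 99.3% of sheep antibody peaks overlapped some peak of the other list. Yet 12.3% of each lay in the first 1000 of both. The share within equal lists grew with their length, to 20.2% of rabbit and 20.3% of sheep antibody peaks at 2000, 31.6% and 31.9% at 5000, 42.7% and 43.1% at 10000 and 53.6% and 54.9% at 40000. At 77421, the whole sheep antibody list, it was 45.1% of rabbit and 46.6% of sheep antibody peaks.

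**Figure D1:**
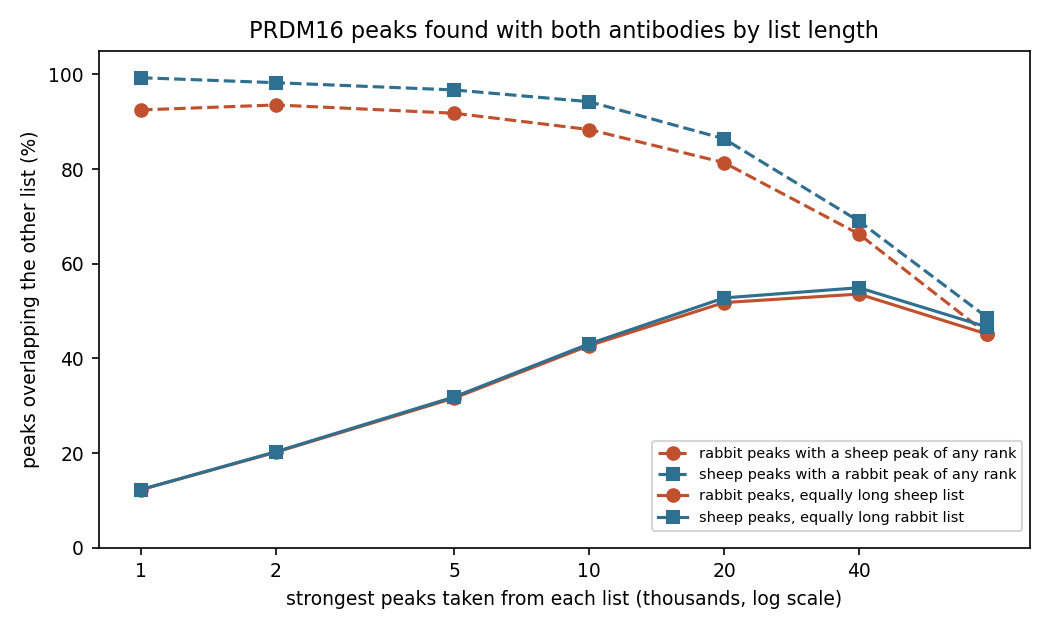
Share of PRDM16 peaks (%, vertical axis) that overlap the other list, against the number of strongest peaks taken from each list (in units of 1000, log axis), for rabbit (circles) and sheep antibody peaks (squares). Dashed lines count a peak of any rank in the other list and solid lines only an equally long list. At 1000 peaks the dashed lines stand at 92.5% and 99.3% and the solid ones at 12.3%.

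Sharing declined with rank inside each list, though not evenly. In 10 groups of equal size from strongest to weakest, 87.0%, 72.7%, 56.1%, 38.97%, 29.1%, 13.1%, 20.6%, 9.70%, 4.60% and 5.34% of rabbit antibody peaks were shared. For sheep antibody peaks the shares were 94.8%, 85.3%, 72.5%, 53.6%, 47.1%, 24.5%, 51.8%, 27.6%, 8.63% and 20.3%. The first 5 groups stood in order in both lists, and group 7 stood above group 6 in both. Ranked by −log10 p, group 7 also stood above group 6, with 20.1% against 13.2% for the rabbit and 46.9% against 29.5% for the sheep antibody. The shared part also varied between chromosomes. Over all peaks it ran from 31.2% (chromosome 3) to 36.2% (chromosome 19) of rabbit antibody peaks. For sheep antibody peaks it ran from 45.4% (chromosome 3) to 53.7% (chromosome 7). Between the 20000 strongest of each list it ran from 46.5% (chromosome 15) to 59.9% (chromosome 13) for the rabbit antibody. For the sheep antibody it ran from 48.1% (chromosome 3) to 60.1% (chromosome 11). In that set chromosome 13 had 48.8% with the sheep and chromosome 11 had 48.6% with the rabbit antibody. Differences between chromosomes were not tested.

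**Figure D2:**
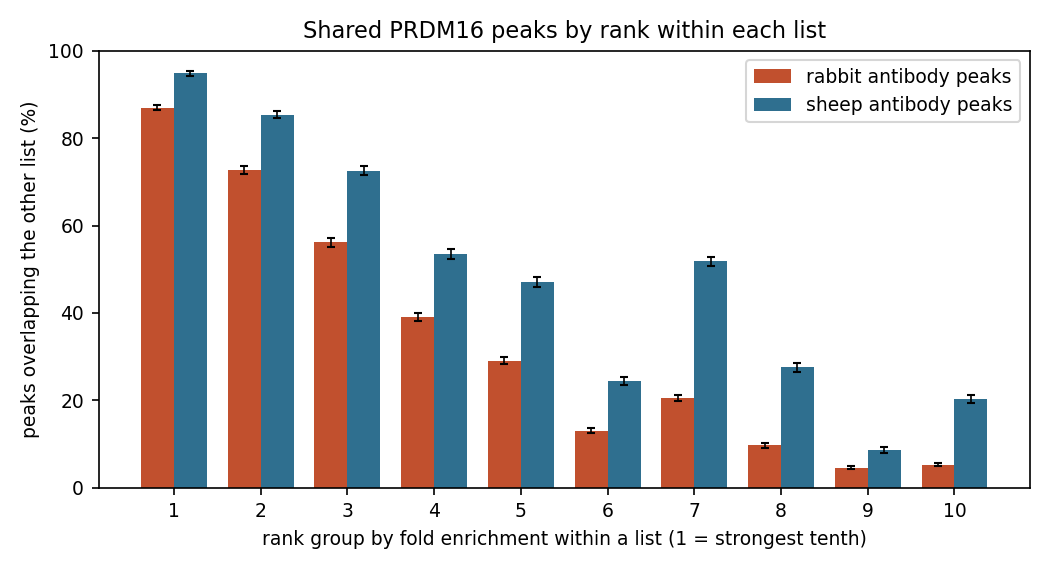
Share of peaks that overlap the other list (%, vertical axis) in 10 groups of equal size ranked by fold enrichment within a list (group 1 strongest), for rabbit (left bars) and sheep antibody peaks (right bars). Error bars are Wilson 95% intervals over peaks. The first group stands at 87.0% and 94.8%, the last at 5.34% and 20.3%.

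Where peaks met, they met closely. Mutual best overlaps gave 35309 pairs over all peaks, with a median distance of 126 bases between the 2 summits (quartiles 48 and 269) and 64.6% of summits within 200 bases. Among the 20000 strongest the 10271 pairs had a median summit distance of 79 bases (quartiles 31 and 209), and 73.9% lay within 200 bases. At least 50% of the shorter peak was covered in 89.7% of all pairs and 98.3% of the strongest. Overlaps under 20 bases were rare, 331 of shared rabbit (0.903%) and 361 of shared sheep antibody peaks (0.959%). Single peaks were not near misses either in most cases. The nearest peak of the other list was within 500 bases for 9.72% of rabbit-only and 16.9% of sheep-only peaks, and the median gap was 6714.5 and 3179 bases.

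Ranks of paired peaks were only weakly related. Spearman's rho of fold enrichment was 0.37 over the 35309 pairs and 0.16 over the 10271 pairs of the 20000 strongest. It is a description, since pairs share their genome neighbourhood and are not replicates. With −log10 p in place of fold enrichment it was 0.47 over all pairs and 0.40 over those same 10271, and for peak width 0.42 and 0.40. Limited to pairs with −log10 q of 5 or more in both lists, the rho of fold enrichment was 0.04. Agreement was no better at gene ends: 0.31 over 9287 pairs within 1 kb of a gene end and 0.37 over 26022 pairs elsewhere, and 0.15 over 4082 and 0.19 over 6189 of the strongest. Of the pairs in the first of 10 rank groups of the rabbit antibody list, 3563 of 9392 (37.9%) were also in the first group of the sheep antibody list, and these made up 49.2% of its 7239 such pairs.

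**Figure D3:**
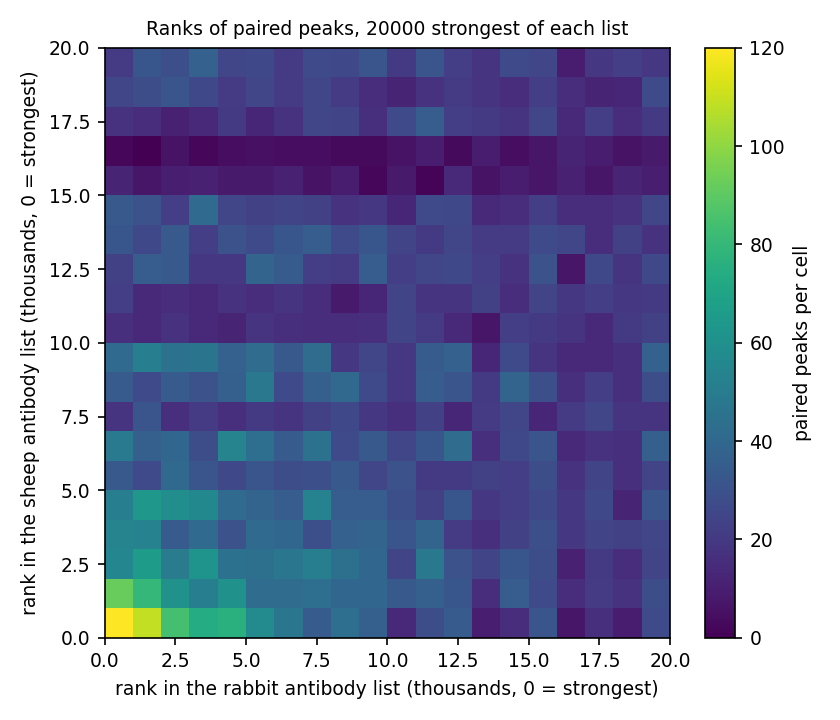
Number of paired peaks (colour) by rank in the rabbit (horizontal axis) and the sheep antibody list (vertical axis), both in units of 1000 with 0 the strongest, for the 10271 pairs between the 20000 strongest peaks of each list. Each cell spans 1000 ranks on each side. The corner of the strongest ranks holds 120 pairs and the corner of the weakest 19, with pairs spread over most of the plot between them.

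Shared peaks lay at gene ends far more often than single ones when all peaks were used. The distance was taken from a peak's midpoint to the nearer annotated end of any protein-coding RefSeq gene, since the annotation used gives no strand. Within 1 kb lay 26.0% of shared and 6.32% of rabbit-only peaks, a difference of 19.7 percentage points (Newcombe 95% interval 19.2 to 20.2). For the sheep antibody it was 26.4% of shared and 6.11% of sheep-only peaks, a difference of 20.3 points (19.8 to 20.8). The single peaks of the antibodies hardly differed here, by 0.210 points (−0.0870 to 0.503). Median distances were 9088 bases for shared and 21624 for rabbit-only peaks, and 8711.5 for shared and 23415 for sheep-only peaks. In each of the 10 rank groups of both lists shared peaks were near an end more often than single ones, by 1.82 to 23.2 points for the rabbit and 3.78 to 21.5 for the sheep antibody.

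The single-antibody classes parted when the 20000 strongest peaks were used. Within 1 kb of a gene end were 31.1% of rabbit-only and 15.7% of sheep-only peaks, a difference of 15.4 percentage points (14.2 to 16.6), with shared peaks at 39.5% of rabbit and 39.2% of sheep antibody peaks. The median distance was 3777 bases for shared and 4936 for rabbit-only peaks, whereas it was 3727 for shared and 16889.5 for sheep-only peaks. More than 50 kb from any end were 11.8% of rabbit-only and 26.3% of sheep-only peaks. Counting shared and single peaks, 35.5% of the 20000 strongest rabbit and 28.1% of the 20000 strongest sheep antibody peaks were within 1 kb of an end. Over all peaks the order was the opposite, 13.0% for the rabbit and 16.0% for the sheep antibody, a difference of −3.02 points (−3.35 to −2.70). For peaks with no peak of any rank in the other list the shares were 19.5% for the rabbit and 10.8% for the sheep antibody, a difference of 8.76 points (7.02 to 10.5). The classes also differed in confidence, with a −log10 q of at least 5 in 93.5% of rabbit-only and 35.3% of sheep-only peaks, whose part in the result was not tested. Limited to peaks with −log10 q of 5 or more in both lists, the difference was 12.1 points.

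**Figure D4:**
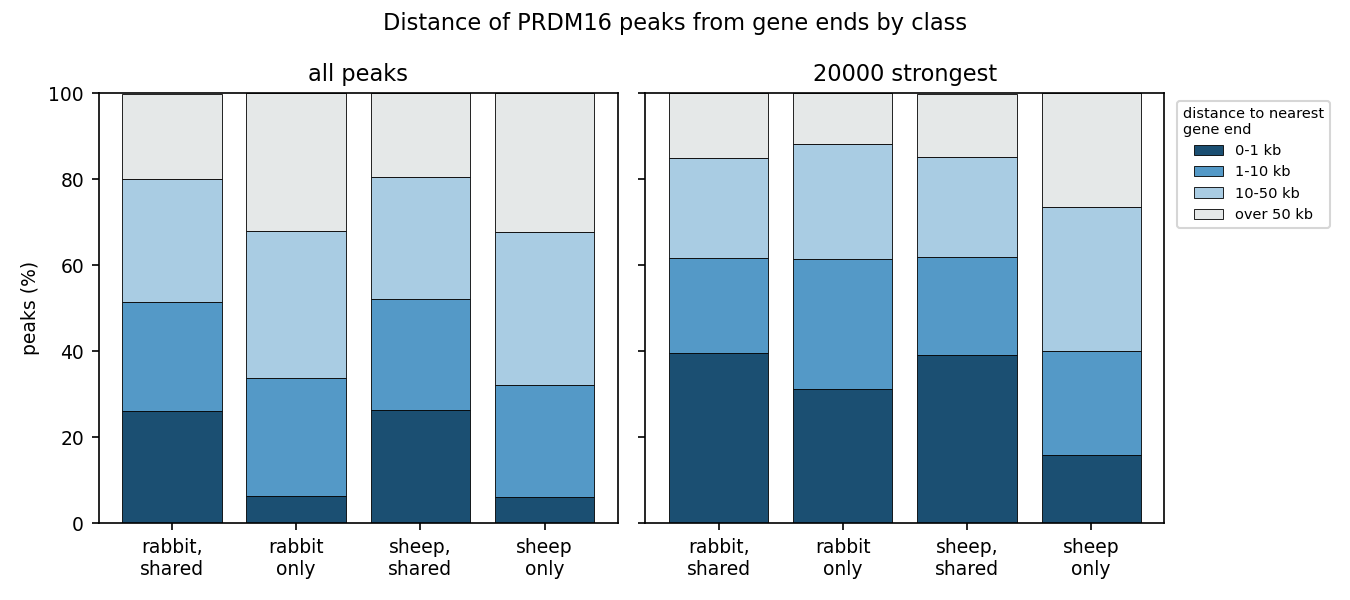
Share of peaks (%, vertical axis) by distance from the peak midpoint to the nearest end of a protein-coding gene, in 4 distance bands, for shared and single peaks of each antibody, with all peaks (left) and the 20000 strongest of each list (right). The darkest band, within 1 kb, is 6.32% of rabbit-only and 6.11% of sheep-only peaks on the left, and 31.1% and 15.7% on the right.

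Seen from position, a peak at a gene end or over H3K4me3 was likelier to be shared. Of rabbit antibody peaks, 67.7% within 1 kb of an end were shared, 32.0% at 1 to 10 kb, 30.0% at 10 to 50 kb and 23.9% beyond. Of sheep antibody peaks it was 80.4%, 48.2%, 43.1% and 36.3%. Over an H3K4me3 peak in all 3 libraries, 79.7% of rabbit and 89.9% of sheep antibody peaks were shared, and over none 24.6% and 37.4%. With the 20000 strongest the sheep antibody kept this order, with 73.6%, 51.2%, 43.6% and 38.6% by distance. The rabbit antibody did not, with 57.7%, 44.1%, 48.3% and 57.6%: its strong peaks beyond 50 kb were shared as often as those at gene ends.

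Shared peaks were overlapped more often than single ones by the other libraries of the series, which had no part in the classes. PRDM3 peaks overlapped 55.4% of shared and 7.04% of rabbit-only peaks, and 54.1% of shared and 6.003% of sheep-only peaks. NKX2-1 libraries 1, 2 and 3 overlapped 67.7%, 30.6% and 35.4% of shared and 11.4%, 3.50% and 4.73% of rabbit-only peaks. They overlapped 66.9%, 29.2% and 34.1% of shared and 9.95%, 3.50% and 4.62% of sheep-only peaks. H3K4me3 libraries 1, 2 and 3 overlapped 39.1%, 35.0% and 33.2% of shared and 6.55%, 4.96% and 4.39% of rabbit-only peaks, and 39.7%, 35.4% and 33.6% of shared and 5.46%, 4.45% and 3.83% of sheep-only peaks. With all peaks, shared ones were overlapped several times as often as single ones by each of these 7 libraries. Shared peaks were also wider, with medians of 744 against 338 bases for the rabbit and 606 against 314 for the sheep antibody. The part of width in these shares was not tested. Among the 20000 strongest the gap was narrower: PRDM3 overlapped 87.1% of shared and 53.9% of rabbit-only peaks, NKX2-1 library 1 92.7% and 70.6%, and H3K4me3 library 1 59.9% and 43.4%. For the sheep antibody, PRDM3 overlapped 85.7% of shared and 42.5% of sheep-only peaks, NKX2-1 library 1 92.0% and 57.1%, and H3K4me3 library 1 59.8% and 23.9%.

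Rabbit-only and sheep-only peaks differed little over these libraries with all peaks and clearly among the strongest. Over all peaks the difference, rabbit only minus sheep only, was 0.719 ± 0.322 percentage points for H3K4me3 and 0.537 ± 0.833 for NKX2-1 (SD, n = 3 libraries each), and 1.04 for the 1 PRDM3 library. The NKX2-1 value rested on library 1 and was 0.0576 without it. Among the 20000 strongest, H3K4me3 libraries overlapped 43.4%, 38.7% and 36.9% of rabbit-only and 23.9%, 20.7% and 19.3% of sheep-only peaks, a difference of 18.3 ± 1.00 points (SD, n = 3). NKX2-1 libraries overlapped 70.6%, 29.3% and 34.4% of rabbit-only and 57.1%, 19.8% and 24.2% of sheep-only peaks, a difference of 11.1 ± 2.09 points (SD, n = 3). PRDM3 overlapped 53.9% of rabbit-only and 42.5% of sheep-only peaks. Each of the 4 differences with 3 libraries was positive in 3 of 3, though NKX2-1 library 2 over all peaks gave only 0.000491 points. The exact two-sided sign-flip permutation p was 0.25 for each, the smallest that 3 libraries allow. These SDs and p-values describe spread over libraries laid on the same rabbit-only and sheep-only peaks. They do not measure spread between PRDM16 libraries, since each antibody has 1. All 7 libraries were made with rabbit antibodies, so host species and class cannot be told apart here. With the limit of 5 on −log10 q the differences were 13.0 points for H3K4me3, 0.186 for NKX2-1 and −2.57 for PRDM3, so the last one turned its direction.

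**Figure D5:**
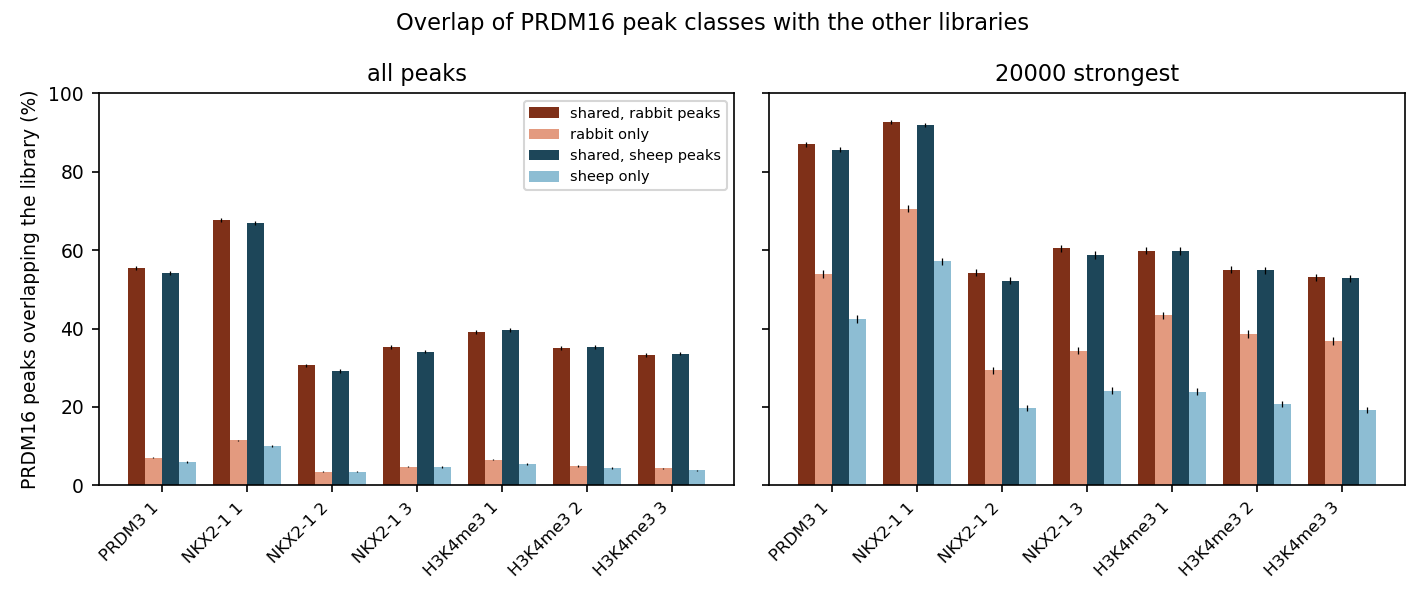
Share of PRDM16 peaks (%, vertical axis) that overlap a peak of each PRDM3, NKX2-1 or H3K4me3 library (horizontal axis, with replicate number), for shared (dark) and single-antibody peaks (light) of the rabbit and the sheep antibody, with all peaks (left) and the 20000 strongest of each list (right). Error bars are Wilson 95% intervals over peaks. On the right, rabbit-only peaks stand above sheep-only peaks at each of the 7 libraries, by 9.53 to 19.5 percentage points.

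Overlap between the antibodies was also set beside their overlap with other targets. Among the 20000 strongest peaks, 52.1% of rabbit PRDM16 peaks met a PRDM3 peak and 60.4% a peak of NKX2-1 library 1, beside the 51.8% that met a sheep PRDM16 peak. For the sheep antibody it was 46.6% with PRDM3 and 52.4% with NKX2-1 library 1, beside 52.8% with the rabbit antibody. Among the 1000 strongest, the rabbit antibody shared 27.4% with PRDM3 and 24.6% with NKX2-1 library 1, against 12.3% with the sheep antibody. The sheep antibody shared 23.2% with PRDM3 and 11.1% with NKX2-1 library 1. Spearman's rho over pairs of the 20000 strongest was 0.35 for rabbit PRDM16 with PRDM3 (10381 pairs) and 0.22 for sheep PRDM16 with PRDM3 (9200 pairs), beside the 0.16 between the PRDM16 lists. With −log10 p over the same pairs these were 0.40, 0.44 and 0.40, which lie closer together. These comparisons share libraries, so their values are given side by side with no test. PRDM3 and NKX2-1 library 1 carry C numbers like both PRDM16 libraries and were made with rabbit antibodies. NKX2-1 libraries 2 and 3 were not compared in this way. With NKX2-1 peaks of any rank, libraries 1, 2 and 3 overlapped 82.05%, 42.3% and 47.9% of the 20000 strongest rabbit PRDM16 peaks. For the sheep antibody the shares were 75.5%, 36.9% and 42.4%.

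Most genes with a PRDM16 peak had one found with both antibodies. Each peak was linked to 1 protein-coding gene, that with the closest end, up to 50 kb away. Of 20665 genes on chromosomes 1 to 19, 12752 (61.7%) were linked to a shared peak, 2581 (12.5%) to rabbit-only peaks alone, 627 (3.03%) to sheep-only peaks alone, 1896 (9.17%) to single peaks of both and 2809 (13.6%) to none. With the 20000 strongest peaks the counts were 6533 (31.6%), 2998 (14.5%), 1631 (7.89%), 849 (4.11%) and 8654 (41.9%). Over the 14379 genes linked in both lists, Spearman's rho was 0.48 for the fold enrichment of a gene's best peak and 0.79 for its number of peaks. The number of peaks also follows the length of sequence nearest to a gene. The 1000 strongest peaks of the rabbit antibody belonged to 893 genes and those of the sheep antibody to 730, of which 141 stood in both (15.8% and 19.3%).

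Nearly all alveolar genes were linked to a shared peak. All 24 AT1 genes and 29 lung epithelial transcription factor genes were linked to a shared peak, and 21 of 22 AT2 genes, against 61.7% of all genes. Among the 20000 strongest peaks these were 20 AT1, 26 transcription factor and 15 AT2 genes, against 31.6% of all genes. At Gprc5a, an orphan receptor gene of AT1 cells, peaks of 19.3 fold with the rabbit and 13.7 fold with the sheep antibody lay 673 bases from the gene's end (chromosome 6, 135064075 to 135068650), with summits 16 bases apart. Aqp5, the AT1 water channel gene, had 26.7 and 10.5 fold at 1088 bases, ranks 115 and 1139, with no H3K4me3 peak. At Lpcat1, a surfactant lipid acyltransferase gene, the values were 23.0 and 11.9 fold in a region 12875 bases outside the gene, and at Sftpb, which encodes surfactant protein B, 17.9 and 8.80 fold at 243 bases. All 4 regions also overlapped peaks of PRDM3 and of NKX2-1 library 1, and all but that at Aqp5 overlapped NKX2-1 libraries 2 and 3.

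The best peaks of a gene could still differ between the antibodies. Hopx, a homeodomain gene of AT1 cells, had its best rabbit antibody peak at rank 2562, 15246 bases from the gene's end, and its best sheep antibody peak at rank 95, 22625 bases from it. Lgi3, a neighbour of Sftpc, was at rank 9244 and rank 93. Sox2, which drives the airway lineage, was at rank 19009 and rank 829. In the other direction Fasn, the fatty acid synthase gene, stood at rank 1343 with the rabbit and 18021 with the sheep antibody, and Krt7, a keratin gene, at 2530 and 19662. Akap5, an anchoring protein gene of the AT1 list, had only a sheep antibody peak among the 20000 strongest, with best ranks of 23709 and 3531. Lyz2, the lysozyme gene, had no linked peak of either antibody. By the worse of a shared pair's 2 ranks, Foxa2 and Id2 came first among the transcription factor genes, with 14.9 and 12.1 fold in a region 37472 bases from Foxa2 and 13.5 and 10.1 fold in one 3693 bases from Id2.

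Among 16 PRDM family genes, 14 were linked to a shared peak, against 61.7% of all genes, and 10 among the 20000 strongest, against 31.6%. Prdm16 itself had a shared peak 771 bases inside its end (chromosome 4, 154634879 to 154638300), of 16.2 fold (rank 956) with the rabbit and 9.80 fold (rank 1572) with the sheep antibody, over H3K4me3 in all 3 libraries. Its strongest single peaks were weaker, 7.01 fold for rabbit only and 4.67 fold for sheep only, each inside the gene. Mecom, which encodes PRDM3, had a shared peak of 18.3 and 9.67 fold (chromosome 3, 30503344 to 30506360), ranks 615 and 1653, and single peaks of 4.30 fold with the rabbit and 4.999 fold with the sheep antibody. Zfpm2, a cofactor gene of GATA factors, had only rabbit antibody peaks, the best of 4.77 fold. At Nkx2-1 the shared pair with the best worse rank was moderate, 6.91 and 4.89 fold (ranks 11920 and 14055) 2209 bases outside the gene. Beside it were a rabbit-only peak of 3.62 fold and a sheep-only peak of 3.73 fold. The gene's best peak had 9.53 fold (rank 5323) in the rabbit and 5.31 fold (rank 12390) in the sheep antibody list.

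Of 15 brown fat genes, 12 were linked to a shared peak (61.7% of all genes), and 10 among the 20000 strongest (31.6% of all genes). Cidea, a lipid droplet gene, had 12.2 fold with the rabbit and 8.86 fold with the sheep antibody at 2401 bases. Ebf2, a factor of brown fat precursors, had 10.0 and 8.84 fold at 750 bases. Cox8b, a subunit of cytochrome oxidase, and Ucp1, the uncoupling protein of brown fat, were linked to rabbit antibody peaks alone, the best of 7.89 fold and 2.87 fold. The −log10 q was 9.11 at Cox8b but 0.996 at Ucp1, whose best peak (rank 64148) did not reach a q under 0.05. Its fold enrichment is a stacked value that 15655 rabbit antibody peaks share. Dio2 had no linked peak of either antibody. All 16 genes of known PRDM16 partners on these chromosomes were linked to a shared peak, and 11 among the 20000 strongest, beside the same 61.7% and 31.6% of all genes. Ehmt2, a histone methyltransferase gene, stood at rank 116 with the rabbit and 10298 with the sheep antibody.

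Lists of other cell types varied. Among the 20000 strongest peaks, a shared peak was linked to 1 of 15 mesenchymal genes, 3 of 12 endothelial, 2 of 12 blood and immune, 4 of 13 neuronal, 0 of 14 liver and 5 of 14 airway genes (35.7%), against 31.6% of all genes. With all peaks it was 10 of 15 mesenchymal, 9 of 12 endothelial, 5 of 12 blood and immune, 10 of 13 neuronal, 4 of 14 liver and 9 of 14 airway genes, against 61.7% of all genes. Among the 20000 strongest, surfactant lipid genes reached 19 of 25, general epithelial genes 13 of 16 and housekeeping genes 7 of 18 (38.9%), against 31.6% of all genes. With all peaks these were 24 of 25, 16 of 16 and 16 of 18, against 61.7% of all genes. Among the 20000 strongest, 5 of 18 housekeeping genes were linked to rabbit antibody peaks alone and 0 to sheep antibody peaks alone. Of all genes, 14.5% and 7.89% were. Some fibroblast genes stood high in the list of 1 antibody and low in the other. Col1a1, a fibroblast collagen gene, had its best peaks at rank 129 with the rabbit and 23142 with the sheep antibody, and Lum, a fibroblast proteoglycan gene, at rank 30615 and rank 1150. Pdgfra, a fibroblast receptor gene and the 1 mesenchymal gene with a shared strong peak, was at rank 528 and rank 6629. These genes were chosen after their values were seen.

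The pairs that stood highest in both lists were at genes of varied function. Frrs1, a ferric reductase gene, had the first peak of the sheep antibody list, 32.1 fold, and 26.9 fold (rank 110) with the rabbit antibody, in a region 22979 bases inside the gene (chromosome 3, 116881485 to 116883607). The pair at Fbxl19, whose promoter is printed above, had 26.8 and 20.04 fold (ranks 113 and 38). Dock4, an exchange factor gene for Rac, followed with 25.8 and 17.0 fold (ranks 141 and 100) in a region 41906 bases outside the gene, over no H3K4me3 peak and with summits 2 bases apart. Scgb2a2, a secretoglobin gene, had 43.6 and 15.2 fold (ranks 9 and 185). Pisd (phosphatidylserine decarboxylase), Slc25a28, Pcdh12 (a protocadherin) and Tnrc6b (a factor of microRNA silencing) completed the 8, with 23.6 to 30.5 fold in the rabbit and 15.0 to 16.9 fold in the sheep antibody list. All 8 regions overlapped PRDM3 and 3 of 3 NKX2-1 libraries.

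The strongest rabbit-only peaks stood higher in their list than the strongest sheep-only peaks in theirs. The classes were not filtered equally. A rabbit-only peak had to miss 77421 sheep antibody peaks covering 42.0 Mb. A sheep-only peak had to miss 108677 rabbit antibody peaks covering 60.8 Mb. The part of this in the ranks was not tested. The first 6 linked to genes were at Zfp385a (a zinc-finger gene, 42.9 fold, rank 13), Slc27a4 (a fatty acid transporter, 38.7, rank 22), Naif1 (37.9, rank 23), Moxd1 (a monooxygenase, 35.0, rank 31), 9830107B12Rik (34.5, rank 34) and Ppp5c (a protein phosphatase, 31.4, rank 49). All 6 overlapped PRDM3 and NKX2-1 library 1. NKX2-1 library 2 overlapped only those at Slc27a4 and Ppp5c, and library 3 only that at Naif1. H3K4me3 library 1 overlapped 2, at Zfp385a and Slc27a4, and libraries 2 and 3 overlapped none. The first 6 of the sheep antibody were at Gm21188 (16.2 fold, rank 135), Zc3h6 (13.2, rank 435), Osr2 (an odd-skipped factor, 11.7, rank 730), Gm36079 (11.7, rank 763), Ppcdc (a coenzyme A synthesis gene, 10.9, rank 988) and Zbtb18 (a transcriptional repressor, 10.8, rank 1032). None of these 6 overlapped H3K4me3, 2 overlapped PRDM3 and 3 overlapped NKX2-1 library 1. NKX2-1 library 2 overlapped those at Gm21188 and Zbtb18, and library 3 overlapped none. Gm21188 and Gm36079 are neighbours on chromosome 13, so their peaks (120034819 to 120036549 and 120030308 to 120031134) come from 1 stretch of a few kilobases.

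Some pairs stood at opposite ends of the lists. Gm13277 had 28.4 fold (rank 88) with the rabbit and 2.06 fold (rank 77321) with the sheep antibody, and Ccr10, a chemokine receptor gene, 18.3 and 2.02 fold. Por, the cytochrome P450 reductase gene, had 17.9 and 2.08 fold. In the other direction Tbcel, a tubulin cofactor gene, had 2.10 fold with the rabbit and 7.45 fold (rank 4492) with the sheep antibody, Lmntd1 2.10 and 7.70 fold, and Dpp4, a peptidase gene, 2.10 and 7.78 fold (rank 3714). The weaker peak of each pair did not reach a q under 0.05. Its −log10 q was 0.415, 0.277 and 0.586 at Gm13277, Ccr10 and Por, and 0.221 at each of Tbcel, Lmntd1 and Dpp4. By that limit only 1 antibody had a peak at each of these places. The 3 pairs led by the rabbit antibody overlapped H3K4me3 library 1 and PRDM3, and the 3 led by the sheep antibody overlapped PRDM3 and no H3K4me3 library. They were chosen for this contrast of ranks, and fold enrichment is on each list's own scale.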

How the data were processed

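Peak lists of 9 of the 12 samples were used, and the 3 IgG samples were not analysed here. Per the submitters' processing notes, Trimmomatic, Bowtie2, MACS2 and HOMER were used with the build mm10, and no version or setting is given there. The authors deposited 1 peak list per sample, with a fold enrichment (a ratio), a −log10 p and −log10 q, and a score for each peak; the deposited score was not used. Peaks were ranked by fold enrichment, ties by −log10 p and then position, and overlap of at least 1 base was computed on chromosomes 1 to 19. A gene was linked when its nearer end was within 50 kb of a peak's midpoint, with protein-coding genes taken from RefSeq for GRCm38.p6 (mm10). That table has no strand, so either end counts. Shares have Wilson and differences Newcombe 95% intervals. Differences over 3 libraries had an exact sign-flip permutation test.

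Of 269 list entries in 15 gene lists, 261 were on these chromosomes and the others on X. The members of the comparison and the lists were chosen with earlier results of these data known. Named genes followed a rule: Nkx2-1, Prdm16 and Mecom, the 8 shared pairs with the best worse rank, the 6 strongest peaks of each single-antibody class, up to 2 shared and 2 single-antibody members of each of 5 lists, and the 3 pairs furthest apart in rank each way. Other genes named from the lists, and the printed promoters, were chosen after their values were seen. The overlap step was tested on a thinned set of the real rabbit antibody peaks, against a copy in which a random part was kept and shifted. The distance step was checked on real peaks against a direct search of all gene ends. The steps ran in Python 3.11.15 with pandas 2.3.3, numpy 2.4.6 and scipy 1.17.1, and plots were drawn with matplotlib 3.10.9.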

Additional observations from a re-analysis of the deposited data

Results flagged for a closer look

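Peaks outside chromosomes 1 to 19 had no part in the comparison. The rabbit antibody list held 2651 peaks on chromosome X, 112 on Y and 49 on unplaced scaffolds, of which 25.3%, 8.93% and 22.4% overlapped a sheep antibody peak. The sheep antibody list held 1582, 34 and 35 such peaks, of which 43.6%, 32.4% and 31.4% overlapped a rabbit antibody peak. On X both shares were below those on chromosomes 1 to 19, 33.7% for the rabbit and 48.6% for the sheep antibody. No control library was set beside these peaks.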

How the results depend on the processing

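Of 91 values under 15 alternative settings, 42 were labelled as kept, 48 as moved and 1 as reversed. These labels did not follow size for H3K4me3 and NKX2-1. Their differences (rabbit only minus sheep only) of 0.719 and 0.537 points became 18.3 and 11.1 with the 20000 strongest, yet counted as kept. The gene-end difference of 0.210 points (rabbit only minus sheep only) became −0.201 when overlap had to reach 50% of the shorter peak. This change of sign was counted as moved. Joining peaks within 500 bases gave shared shares of 34.0% for the rabbit and 49.2% for the sheep antibody. Overlap of at least 50% of the shorter peak gave 29.8% and 42.9%, among the 20000 strongest 50.8% and 51.6%, a rho of 0.35, and gene-end differences of 20.9 (shared minus rabbit only), 21.1 (shared minus sheep only) and −0.201 points (rabbit only minus sheep only). A −log10 q of at least 5 (19242 and 11395 peaks) gave 41.3% and 70.1% and a rho of 0.0388 (all pairs and strongest alike). With this limit the gene-end differences were 12.6, 24.7 and 12.1 points, and PRDM3 had −2.57 points, the value labelled as reversed. It left 5467 genes with a shared peak and 4298 with rabbit-only peaks alone. Adding X and Y gave 50.8% and 51.7% among the 20000 strongest, and taking 10000 gave 42.7%, 43.1% and a rho of 0.11. Ranking by −log10 p gave 55.2% and 56.2%, with a rho of 0.47 over all pairs and 0.33 between its own 20000 strongest. A 5 kb limit gave 21.5 (shared minus sheep only) and 1.59 points (rabbit only minus sheep only). All annotated genes gave 20.9 and 21.4 points for shared minus rabbit only and sheep only, 8271 genes with rabbit-only and 2414 with sheep-only peaks alone. The 20000 strongest gave 8.41, 23.4 and 15.4 points, 11.4 for PRDM3, 6533 genes with a shared peak and 1631 with sheep-only peaks alone. Chosen after seeing the data, the 20000 strongest by −log10 p gave 14.0, 26.8 and 13.2 points and 7.82 for PRDM3, and peaks with no peak of any rank in the other list gave 8.76 points (rabbit only minus sheep only) and 14.4 for PRDM3. Leaving out a library in turn gave 0.534 to 0.823 points for H3K4me3 and 0.0576 to 0.806 for NKX2-1. The cause of these changes was not tested, beyond the fewer peaks some settings use. No paired analysis was possible because each antibody has 1 library and no comparison tests 2 groups with shared replicate numbers. Depth is unknown, so weak peaks missing from 1 list cannot be told from peaks below its reach.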

Other observations

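The strongest peaks of 1 antibody with no peak of any rank in the other list differed in their surroundings. Of the 1000 strongest such peaks, 22.8% with the rabbit and 12.6% with the sheep antibody lay within 1 kb of a gene end, and the median distance was 6365 and 19795.5 bases. H3K4me3 libraries overlapped 31.6%, 25.5% and 23.9% of these rabbit antibody peaks and 13.4%, 12.6% and 11.8% of these sheep antibody peaks. PRDM3 overlapped 42.9% and 26.3%, and NKX2-1 libraries 1, 2 and 3 overlapped 64.0%, 16.9% and 23.5% of the rabbit and 41.3%, 12.6% and 15.6% of the sheep antibody peaks. The same order held among the 100 strongest, with H3K4me3 over 32.0% ± 6.25 of rabbit and 13.3% ± 1.53 of sheep antibody peaks (SD, n = 3 libraries). The lowest rank in these sets of 1000 was 8984 in the rabbit and 11915 in the sheep antibody list, and 100% and 53.1% of their peaks had a −log10 q of at least 5.

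Klf1, the erythroid factor gene, had a strong shared peak although blood genes as a list had few. Its best peaks were of 20.1 fold (rank 440) with the rabbit and 7.30 fold (rank 4595) with the sheep antibody. Foxj1, which drives ciliated cells, had 14.1 fold (rank 1559) and 6.46 fold (rank 6664) at 224 and 223 bases from its end. Scgb1a1, the club cell secretoglobin gene, had 7.22 and 9.33 fold (ranks 10161 and 1964). These genes were chosen after their values were seen.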
